A study of Mus musculus with 6 samples.

Results

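Transcripts of 9 genes of bone morphogenetic protein (BMP) signalling were examined in 6 mouse RNA sequencing libraries. They were the inhibitor of differentiation genes Id1, Id2, Id3 and Id4, the ligand gene Bmp4, the receptor gene Bmpr1a, and Smad1, Smad5 and Smad6. The genes were taken by symbol from 23889 symbols, and all 9 were listed in each of the 3 deposited tables. The haploid cells were androgenetic haploid embryonic stem cells (AG-haESCs), derived from embryos that an injected sperm head and an oocyte stripped of its spindle had formed. They comprised 3 lines, A129-2, AOS-14 and AOS-16, with 1 library each and the strain label F1 hybrid C57BL/6 X DBA/2. These lines grew on feeder cells in knockout serum replacement with 2i, which blocks the kinases MEK and GSK3, and haploid G0/G1 cells were sorted. Round sperm, with the same strain label, gave 1 library, and its culture and sorting text repeats that of the AG-haESCs. The 2 libraries of ESC XX came from embryonic stem cells of an Oct-GFP (C57) background, kept in fetal bovine serum, LIF and 2i and collected after feeders were removed, with no sort named. AG-haESCs and ESC XX therefore differed at once in ploidy, androgenetic origin, number of X chromosomes and strain. They also differed in serum, stated LIF, stated feeder removal, sorting and deposited table, and all these cannot be told apart. All cells of both stem cell groups received 2i. Nothing in the labels says that the ESC XX libraries are separate cultures.

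BMP ligands such as BMP4 bind a complex of type I receptors, among them BMPR1A, and type II receptors. The type I receptor phosphorylates the transcription factors SMAD1 and SMAD5, which enter the nucleus with SMAD4 and switch on target genes, the ID genes being the best known. SMAD6 and SMAD7 inhibit the pathway and are induced by it. ID proteins lack a DNA-binding region and hold E proteins, the partners of basic helix-loop-helix factors, off DNA. In mouse embryonic stem cells BMP4, or serum that contains BMP activity, acts with LIF to sustain self-renewal through ID proteins, whereas 2i medium sustains it without added BMP.

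Levels are given as FPKM, fragments scaled to transcript length and library depth, or as TPM, in which each library is rescaled to the same total. Genes under 200 nt held 12.7% of the total FPKM in AOS-14 and 6.26% in round sperm, against at most 0.111% in the other libraries. Such a share lowers the TPM of all longer genes in that library. The steps of low FPKM values gave an approximate depth of 9140000 to 19740000 fragments in the AG-haESC libraries, 10840000 in round sperm, and 16420000 and 18880000 in ESC XX. By these depths the 9 genes ranged from about 4 fragments (Bmp4 in round sperm) to about 1740 (Bmpr1a in an ESC XX library), so the lowest values carry a large counting error. For genes of 10 to 100 fragments, the median chi-square between libraries was 6.00 to 11.7 times its chance value between AG-haESC lines. Between the ESC XX libraries it was 1.13 times that value. For genes of 100 to 1000 fragments it was 20.2 to 46.8 times between lines and 1.33 times between the ESC XX libraries. The ESC XX libraries were thus nearly as alike as counting error allows. All 5 pluripotency markers were high in both stem cell groups, with a summed 6685 to 7153 TPM in AG-haESCs, against 6814 and 6925 TPM in ESC XX and 17.2 TPM in round sperm. The 6 spermatid markers summed to at most 2.54 TPM in AG-haESCs, 29735 TPM in round sperm and at most 0.757 TPM in ESC XX. The cells thus carried the markers of their labels. These are bulk libraries, in which fewer cells of a type and less RNA per cell cannot be told apart.

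In AG-haESCs, Bmp4 and 3 of the ID genes, Id1, Id3 and Id4, stood below ESC XX in every line, while the receptor and the SMAD genes lay close to ESC XX. Id2 was the exception among the ID genes, being below ESC XX in A129-2 and above it in AOS-14 and AOS-16. Against round sperm, Bmpr1a was higher and Smad6 lower in AG-haESCs.

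**Figure D1:**
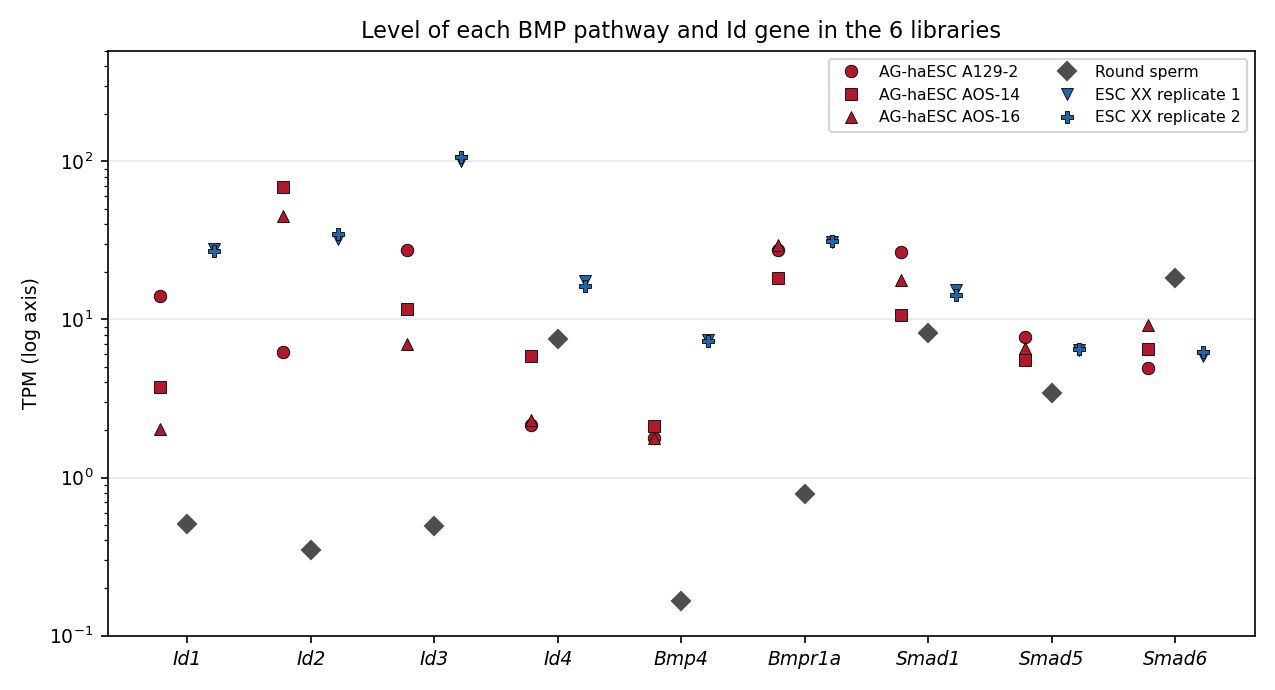
TPM (log axis) of each gene in every library, with AG-haESC lines in red, round sperm in grey and ESC XX in blue, 1 symbol per library. Id3 lay at 7.03 to 27.4 TPM in AG-haESCs, against 0.494 TPM in round sperm and 99.9 and 106 TPM in ESC XX.

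The ligand Bmp4 was at 1.77 TPM in A129-2, 2.11 TPM in AOS-14 and 1.79 TPM in AOS-16, against 7.37 and 7.29 TPM in ESC XX. The lines were close to each other and all were below both ESC XX libraries. As the tables were normalized apart, AG-haESCs and ESC XX were compared with no test. Differences of log2(TPM + 1) were taken relative to the median of all genes, and a gene was called when the means differed by at least 1 and the libraries did not overlap. Bmp4 was called lower at -1.43 ± 0.10 (log2 difference ± SD over 3 lines). The mean level in ESC XX was 3.88 times that in AG-haESCs. Of the 9 genes, 4 were called lower and none higher. Over all 14251 genes compared, 7.82% were called lower and 6.93% higher. The median difference of the 9 genes was -0.22, where that of all genes is 0 by construction.

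The receptor gene Bmpr1a was at 27.5, 18.4 and 29.5 TPM in A129-2, AOS-14 and AOS-16, against 30.9 and 31.4 TPM in ESC XX. All 3 lines lay under ESC XX in TPM, but they overlapped once the median of all genes was removed, and the difference was -0.22 ± 0.35. In FPKM, AOS-16, at 16.1, lay above both ESC XX libraries, at 15.7 and 15.9.

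Smad1, which carries the signal to the nucleus, was at 26.6 TPM in A129-2, 10.6 TPM in AOS-14 and 17.7 TPM in AOS-16, against 15.3 and 14.3 TPM in ESC XX. Its difference of 0.31 ± 0.63 was smaller than the spread of the lines, and the groups overlapped. Smad5, its close relative, was at 7.73, 5.55 and 6.60 TPM in AG-haESCs in the same order of lines, against 6.42 and 6.48 TPM in ESC XX (0.13 ± 0.21). The inhibitor Smad6 was at 4.91, 6.47 and 9.25 TPM in AG-haESCs, against 5.89 and 6.18 TPM in ESC XX (0.23 ± 0.40). For Smad5 and Smad6, too, 1 line lay below and 2 lay above both ESC XX libraries in TPM. For Smad5 this depends on the scaling. In FPKM all 3 lines, at 3.94, 3.92 and 3.61, lay above both ESC XX libraries, at 3.26 and 3.29.

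Id1 was at 14.1 TPM in A129-2, 3.71 TPM in AOS-14 and 2.03 TPM in AOS-16, against 27.9 and 26.9 TPM in ESC XX. Every line was below both ESC XX libraries, and A129-2 was the nearest to them. The difference was -2.14 ± 1.2, and by the depth estimate the lowest value, that of AOS-16, rests on about 9 fragments. Id3, the most abundant ID gene of ESC XX, was at 27.4, 11.6 and 7.03 TPM in A129-2, AOS-14 and AOS-16, against 99.9 and 106 TPM in ESC XX. The lines stood in the same order as for Id1, and the difference of -2.76 ± 0.92 was the largest of the 9. Id4 was at 2.16, 5.88 and 2.30 TPM in AG-haESCs, against 17.4 and 16.3 TPM in ESC XX (-2.0 ± 0.63), and here AOS-14 was the nearest to ESC XX. Id1, Id3, Id4 and Bmp4 were called lower, and no other member was called, in each of the 11 alternative settings, which include leaving out any 1 library.

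Id2 behaved otherwise. It was at 6.24 TPM in A129-2, 68.7 TPM in AOS-14 and 45.2 TPM in AOS-16, against 32.1 and 34.9 TPM in ESC XX. The 2 AOS lines were above and A129-2 was below both ESC XX libraries, so that the mean difference of -0.17 ± 1.74 hides opposite positions of the lines.

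**Figure D2:**
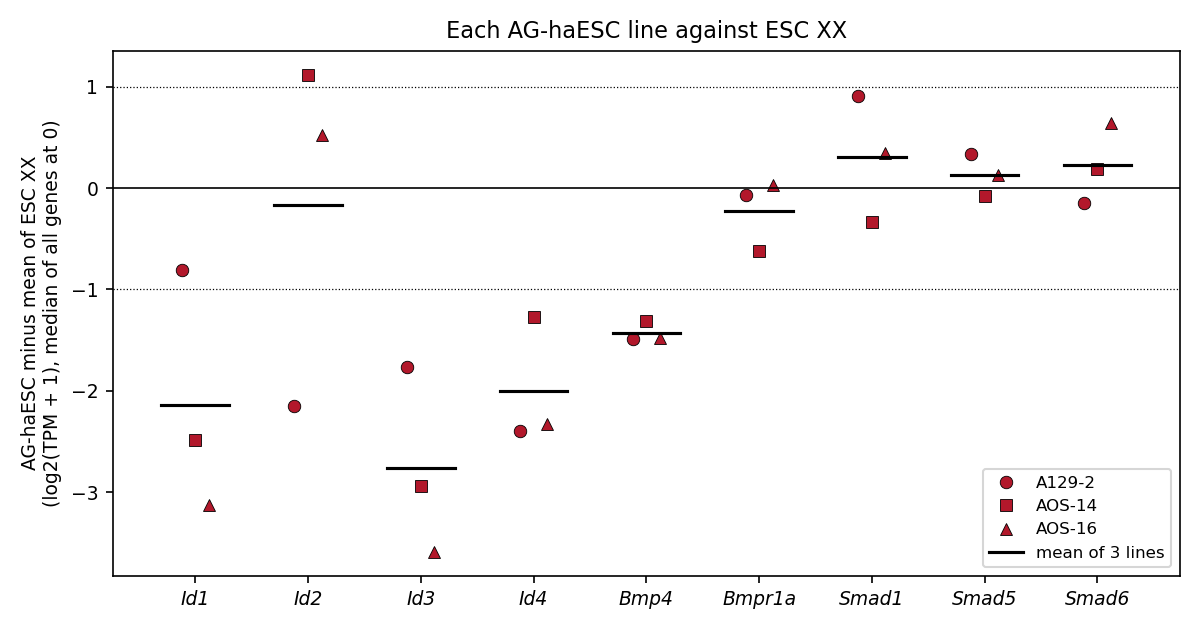
Difference of each AG-haESC line (symbols) and of their mean (short lines) from the mean of the 2 ESC XX libraries, in log2(TPM + 1). The all-gene median of the mean difference was subtracted from every line. The median of all genes is thus at 0 for the mean, but not for each line alone. Dotted lines mark differences of 1 in either direction. Id1, Id3, Id4 and Bmp4 have all 3 lines below 0, and Id2 has A129-2 at -2.15 and AOS-14 at 1.12.

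The promoters of Id2, Id3 and Id4 are shown because these genes followed 3 different patterns in these libraries. Each run holds the 250 bases before the RefSeq transcription start (GRCm38.p6), 5′ to 3′ on the strand of the gene, with capitals marking matches to GGCGCC, a GC-rich motif bound by SMAD1 and SMAD5, and to GTCT or its reverse complement AGAC, the core SMAD box. Id2 lies at chr12:25096093-25096342 on the minus strand, Id3 at chr4:136143572-136143821 and Id4 at chr13:48260866-48261115, both on the plus strand.
Id2: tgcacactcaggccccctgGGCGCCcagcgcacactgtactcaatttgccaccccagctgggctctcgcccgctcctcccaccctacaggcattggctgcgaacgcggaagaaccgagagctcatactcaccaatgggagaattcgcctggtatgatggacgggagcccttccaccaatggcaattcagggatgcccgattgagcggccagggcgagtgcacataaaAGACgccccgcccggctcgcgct
Id3: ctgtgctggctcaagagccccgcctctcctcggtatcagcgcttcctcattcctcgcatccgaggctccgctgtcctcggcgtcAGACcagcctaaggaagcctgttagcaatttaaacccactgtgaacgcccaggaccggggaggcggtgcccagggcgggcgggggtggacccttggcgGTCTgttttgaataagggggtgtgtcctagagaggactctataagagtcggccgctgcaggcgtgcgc
Id4: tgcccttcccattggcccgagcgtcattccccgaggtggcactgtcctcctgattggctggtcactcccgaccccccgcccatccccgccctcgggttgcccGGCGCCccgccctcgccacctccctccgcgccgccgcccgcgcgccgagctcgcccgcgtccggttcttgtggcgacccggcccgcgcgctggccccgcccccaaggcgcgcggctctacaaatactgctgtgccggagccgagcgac

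The Id2 window holds 1 GGCGCC, its first base 231 bases before the start, and 1 AGAC. The Id3 window holds no GGCGCC and 2 matches to the SMAD box, 166 and 68 bases before the start. The Id4 window holds 1 GGCGCC, 148 bases before the start, and no SMAD box. Searched on both strands in all 32851 promoter windows of this length, GGCGCC was present in 9.59% and the SMAD box in 82.9%. The SMAD box had 2 or more matches, as in Id3, in 54.9% of all windows. The E-box CANNTG, to which E proteins bind, had 1 match in Id2 and none in Id3 or Id4, and was present in 66.2% of all windows. The RefSeq table gave a promoter for 8 of the 9 members, all but Id1. These matches describe letters only, and no binding data were used here.

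The ID genes also separated the haploid lines from each other. In A129-2, Id3 made up 55.0%, Id1 28.2% and Id2 12.5% of the summed TPM of the 4 ID genes. In the ESC XX libraries Id3 made up a like share, 56.3% and 57.6%, but Id2, at 18.1% and 18.9%, came before Id1, at 15.8% and 14.6%. In AOS-14 and AOS-16, Id2 made up 76.4% and 79.9%. The summed level was 49.9 TPM in A129-2, 89.9 TPM in AOS-14 and 56.6 TPM in AOS-16, against 8.86 TPM in round sperm and 177 and 184 TPM in ESC XX. In round sperm Id4 made up 84.8% of the sum.

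**Figure D3:**
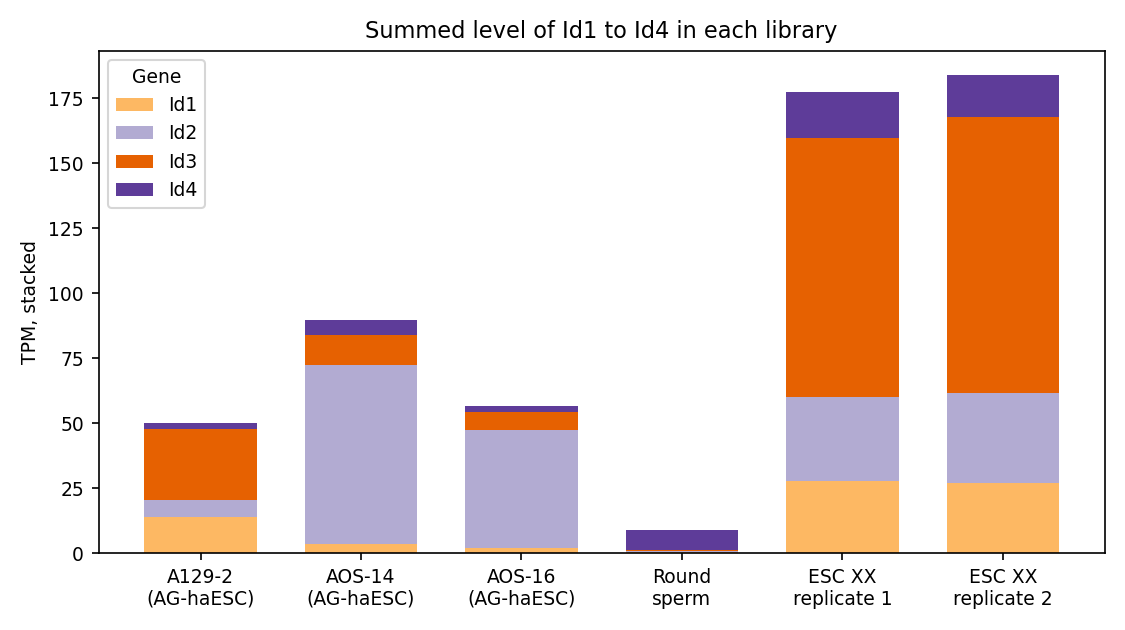
Stacked TPM of Id1 to Id4 in each library. Id3 leads in A129-2 and in both ESC XX libraries, Id2 leads in AOS-14 and AOS-16, and Id4 leads in round sperm.

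Between lines there is 1 library each and no test. Each line was set against the mean of the other lines on log2(TPM + 1), relative to the median of all genes, and was called where it lay at least 1 away and outside both others. A129-2 was called for 3 members. Its Id1 was 1.80 and its Id3 1.30 above the AOS lines, and its Id2 differed by -3.17. Of 13569 genes, 12.9% were called in A129-2. There 1.04% lay as far from the other lines as Id2 did, 3.40% as far as Id1 and 8.30% as far as Id3. AOS-14 was called for Id2 (2.25 above the others) and Id4 (1.41), against 7.41% of all genes. AOS-16 was called for Id1 (-1.55) and Id3 (-1.31), against 6.57% of all genes. Bmp4, Bmpr1a, Smad1, Smad5 and Smad6 were called in no line. Relative to the median, Smad5 varied least, at 0.11, 0.0004 and -0.07 in A129-2, AOS-14 and AOS-16. Bmp4 was at -0.29, 0.48 and -0.15 on that scale, although in TPM its highest level was only 1.2 times the lowest. For Id2 the highest TPM was 11 times the lowest.

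Smad1 lies on chromosome 8, whose genes as a group were higher in A129-2. Smad1 was 0.71 above the AOS lines there, while the median over 475 genes of that chromosome with a mean of at least 10 TPM in the lines was 0.91, and 66.1% of them stood further above the AOS lines than Smad1 did. On chromosomes 2, 4 and 12, which carry Id1, Id3 and Id2, the medians in A129-2, taken in the same way, were -0.01, -0.03 and 0.06.

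Markers of feeder fibroblasts, cells that also make BMP ligands and antagonists, moved with the comparison to ESC XX. Of 8 such markers 7 were called lower in AG-haESCs and none higher, and all 8 reached 1 TPM in ESC XX. Their summed level was 267, 311 and 498 TPM in A129-2, AOS-14 and AOS-16, against 2089 and 2087 TPM in ESC XX. The marker Fn1 made up most of the sum in each line, at 244, 183 and 311 TPM, and was lowest in AOS-14. In ESC XX it was at 721 and 718 TPM. The collagen gene Col1a1 was at 11.1, 56.4 and 95.4 TPM in these lines, against 704 and 682 TPM in ESC XX. Within AG-haESCs, Id1 and Id3 were highest in A129-2, where the summed markers and Col1a1 were lowest, and lowest in AOS-16, where they were highest. Id2 was higher in both AOS lines, which also had more Col1a1 than A129-2. The part of feeder cells in the ID and Bmp4 differences was not tested.

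The comparison with round sperm was tested within the table these 4 libraries share. Limma with a mean-variance trend was fitted to log2(FPKM + 1) of 15938 genes, and a gene was called at an adjusted p under 0.05 with a log2 difference of at least 1. Only the AG-haESC lines, with 2 residual degrees of freedom, inform the spread, since round sperm has 1 library, and the p-values measure the spread between these lines. Of the 9 genes 1 was called higher and 1 lower, against 22.8% of all genes called higher and 39.1% lower. The 9 genes had a median difference of 0.81, and all genes one of -0.49.

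Bmpr1a was at 14.0 FPKM in A129-2, 13 FPKM in AOS-14 and 16.1 FPKM in AOS-16, against 0.972 FPKM in round sperm. It rose by 2.96 ± 0.17 (log2 ± SE, limma, adjusted p = 0.00262), or 3.45 relative to the all-gene median, and it was called in all 10 alternative settings (adjusted p from 0.00247 to 0.0200). Smad6 was at 2.50, 4.58 and 5.05 FPKM in AG-haESCs, against 22.7 FPKM in round sperm. It fell by 2.27 ± 0.43 (limma adjusted p = 0.0277), with all 3 lines below round sperm. Its call was lost without AOS-14 (adjusted p = 0.100) or AOS-16 (adjusted p = 0.0733), and also under the 3 rescalings below, with adjusted p from 0.0504 to 0.0787.

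Id1, Id2 and Id3 were near the detection limit in round sperm, at 0.627, 0.429 and 0.612 FPKM or about 5 to 7 fragments. All 3 AG-haESC lines lay above round sperm for each of these genes, but the spread between lines was wide and none was called. Id1 was at 7.16, 2.63 and 1.11 FPKM in A129-2, AOS-14 and AOS-16, a difference of 1.29 ± 0.97 (limma adjusted p = 0.325). Id2 was at 3.18, 48.6 and 24.7 FPKM (3.61 ± 1.82, limma adjusted p = 0.183) and was called without A129-2 (adjusted p = 0.0434). Id3 was at 14.0, 8.22 and 3.84 FPKM (2.44 ± 0.81, limma adjusted p = 0.0864). Id4 ran the other way, with 1.10, 4.16 and 1.26 FPKM in AG-haESCs, against 9.31 FPKM in round sperm. All 3 lines were below round sperm (-1.83 ± 0.71, limma adjusted p = 0.117), and the gene was called without AOS-14 (adjusted p = 0.0156), the line with the most Id4.

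Bmp4 was at 0.90, 1.5 and 0.978 FPKM in AG-haESCs, against 0.205 FPKM in round sperm (0.81 ± 0.21, limma adjusted p = 0.0535). It passed neither threshold. Smad1 was at 13.5, 7.5 and 9.65 FPKM in AG-haESCs, against 10.2 FPKM in round sperm (-0.03 ± 0.39, limma adjusted p = 0.950), and Smad5 at 3.94, 3.92 and 3.61 FPKM, against 4.26 FPKM (-0.13 ± 0.10, limma adjusted p = 0.328).

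The total FPKM of round sperm, 1239220, exceeded those of the AG-haESC libraries, 509359 to 707325, and the level of every difference moved with the scaling. The median of all genes was -0.49 as deposited and became 0.40 at the same total, 0.37 at the same total without genes under 200 nt, and 0.33 after quantile normalization. Over all genes, 36.8% of calls were higher as deposited, against 52.1%, 52.3% and 51.8% under these scalings. Relative to these medians the called members moved little. Bmpr1a stood 3.45 above the median as deposited and 3.44 above it at the same total, while Smad6 stood at -1.78 and -1.74. Bmp4 was called under all 3, at 1.31 for the same total (limma adjusted p = 0.00509), 1.34 without short genes (0.0124) and 1.05 with quantile values (0.0140). The differences of Smad1 and Smad5 from round sperm turned positive under all 3, and relative to the median Smad5 was at 0.37 as deposited and -0.07 after quantile normalization.

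**Figure D4:**
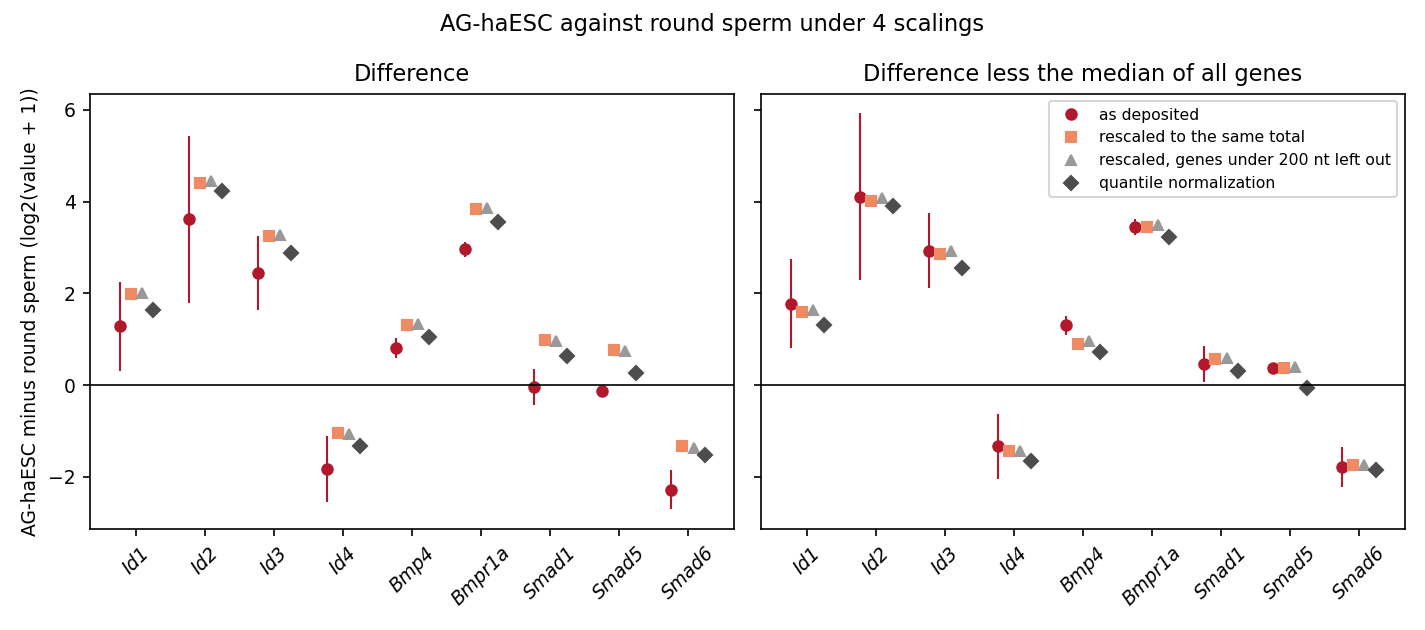
AG-haESC minus round sperm for each gene on the log2(value + 1) scale under 4 scalings, as such on the left and less the median of all genes on the right; bars on the deposited values are the limma standard error. Bmpr1a stays between 3.23 and 3.50 above the median and Smad6 between -1.84 and -1.73.

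A wider set of 56 pathway genes in 6 groups was read in the same fits. Against ESC XX, 42 of them were kept, of which 2 were called higher and 7 lower, beside 6.93% higher and 7.82% lower over all genes compared. Of 10 secreted antagonists, 5 were called lower and none higher, with a median difference of -1.19. Grem1, which binds and blocks BMPs, was at 0, 0 and 0.234 TPM in A129-2, AOS-14 and AOS-16, against 22.9 and 21 TPM in ESC XX (-4.31 ± 0.17). Fstl1, a follistatin-like glycoprotein that binds BMP4, was at 12.1, 29.9 and 54.0 TPM in AG-haESCs, against 155 and 161 TPM in ESC XX (-2.39 ± 1.04). Fst, or follistatin, which binds activins and some BMPs, was at 0.694, 2.54 and 2.46 TPM in AG-haESCs, against 13.3 TPM in both ESC XX libraries (-2.27 ± 0.60). The fibroblast markers were lower with them, as given above.

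None of 6 ligand genes, 9 receptor and co-receptor genes, 7 SMAD transducers and regulators and 3 E protein genes was called against ESC XX. The median difference was 0.23 for ligands, -0.14 for SMAD transducers and regulators and -0.24 for E proteins. The receptor group had a median of -0.78, with Eng, Acvr1 and Rgma between -0.92 and -0.84. Of 7 other targets, 2 were called higher and 2 lower, with a median of 0.26. Dusp9, an X-linked phosphatase that dampens ERK and is a BMP target in mouse embryonic stem cells, was at 165, 218 and 280 TPM in AG-haESCs, against 24.2 and 24.5 TPM in ESC XX (3.20 ± 0.38). Gata3, a transcription factor of trophoblast, was also higher (1.69 ± 0.23), and Msx2, a homeobox target of BMP, was lower (-1.15 ± 0.10), as was Atoh8 (-1.13 ± 0.20). The call of Msx2 was lost with FPKM as deposited (-0.98), and that of Atoh8 without A129-2 (-0.96).

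**Figure D5:**
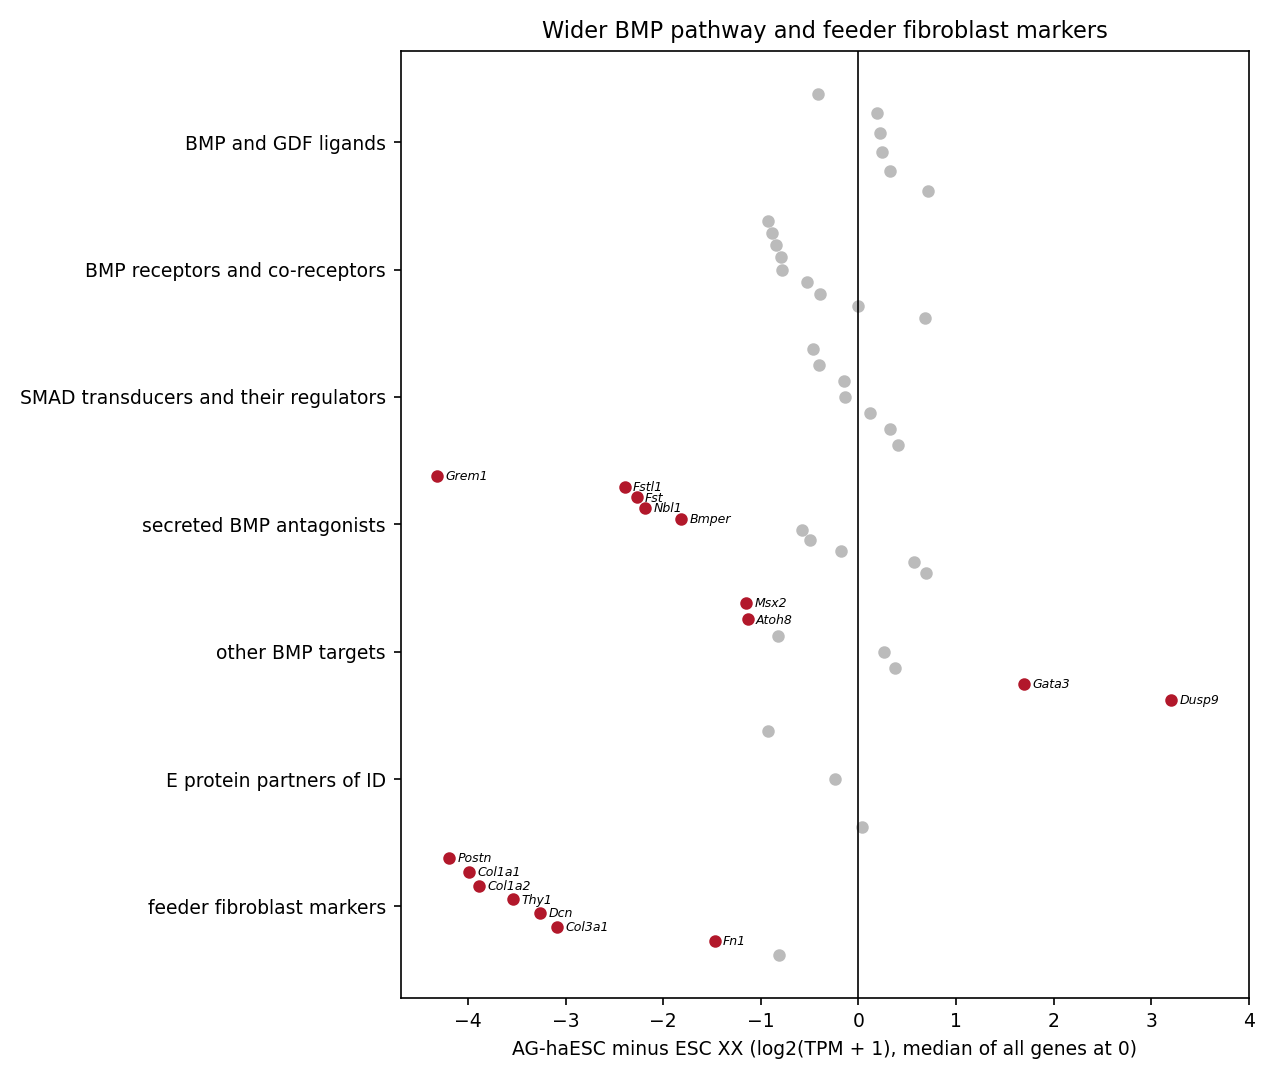
AG-haESC minus ESC XX in log2(TPM + 1), median of all genes at 0, for each gene kept in the 6 pathway groups and for feeder fibroblast markers; red points with names are called. Grem1 lies at -4.31, beside 4 other antagonists and 7 of the 8 fibroblast markers on the lower side, and Dusp9 at 3.20.

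Against round sperm, 37 of the 56 genes were tested, of which 13 rose and 9 fell, beside 22.8% higher and 39.1% lower over all genes tested. At the same total 18 rose and 5 fell, beside 30.5% and 28.1% over all genes. Without AOS-16, 12 rose and 5 fell, beside 16.7% and 33.3%. Beside the median of -0.49 over all genes, the median difference was 0.36 for ligands, 1.71 for receptors, 0.81 for SMAD transducers and regulators, 1.07 for antagonists, -0.97 for other targets and 1.69 for E proteins. Among 5 ligands 2 rose and 1 fell. Gdf3, a BMP-related factor of pluripotent cells, rose by 4.62 ± 0.36 (limma adjusted p = 0.00469) and Gdf9, best known from oocytes, fell by 3.54 ± 0.14 (limma adjusted p = 0.00131). Bmp7 rose by 2.13 ± 0.53 (limma adjusted p = 0.0499), a call lost without A129-2 (adjusted p = 0.0717) or AOS-14 (adjusted p = 0.154), and also with no filter on low values (0.0596) or no trend (0.0527). Among 7 receptors and co-receptors, 3 rose and 1 fell. The co-receptor Eng rose by 3.39 ± 0.45 (limma adjusted p = 0.0137). Rgmb, another co-receptor, was at 4.88 to 5.93 TPM in AG-haESCs and was listed at 0 in round sperm (limma adjusted p = 0.00856). The type II receptor Acvr2a fell by 1.96 ± 0.26 (limma adjusted p = 0.0134). Eng was not called without A129-2 (adjusted p = 0.0551) or AOS-16 (adjusted p = 0.0583), and Acvr2a was not called without AOS-16 (adjusted p = 0.0657) or at the same total with short genes (adjusted p = 0.169) and without them (0.112).

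Of 7 SMAD transducers and regulators, 3 rose and 3 fell. Smad7, the other inhibitory SMAD, rose by 3.92 ± 0.29 (limma adjusted p = 0.00422), opposite in direction to Smad6. It was at 22.2 to 35.9 TPM in AG-haESCs, against 0.0523 TPM in round sperm and 32.3 and 29.8 TPM in ESC XX. Ski, a co-repressor that binds SMADs, rose by 3.53 ± 0.37 (limma adjusted p = 0.00837), and Ppm1a, a phosphatase reported to act on SMADs, fell by 2.72 ± 0.21 (limma adjusted p = 0.00465). Of 8 antagonists 2 rose and 2 fell. Twsg1, an extracellular BMP modulator, rose by 4.16 ± 0.22 (limma adjusted p = 0.00226). Dand5 fell by 5.41 ± 0.79 (limma adjusted p = 0.0166, lost without AOS-14 at 0.0700 or AOS-16 at 0.0732) and Sostdc1 by 2.24 ± 0.15 (limma adjusted p = 0.00341). Of 7 other targets, Dusp9 rose by 6.88 ± 0.50 (limma adjusted p = 0.00409). Atoh8, a basic helix-loop-helix factor, was at 0 to 0.314 TPM in AG-haESCs, against 143 TPM in round sperm, and fell by 7.37 ± 0.13 (limma adjusted p = 0.000241). Bambi, a decoy receptor, fell by 1.61 ± 0.36 (limma adjusted p = 0.0388), a call lost in 5 of 10 alternatives, among them those without A129-2 (adjusted p = 0.0688) or AOS-16 (adjusted p = 0.131). Of the 3 E protein genes that ID proteins bind, Tcf3, which encodes E2A, rose by 5.29 ± 0.22 (limma adjusted p = 0.00144). Tcf12 rose by 1.69 ± 0.37 (limma adjusted p = 0.0387), a call lost without A129-2 (adjusted p = 0.0644) or AOS-14 (adjusted p = 0.130).

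Ordered by mean log2(TPM + 1), Id1, Id3 and Bmp4 ran from ESC XX through AG-haESCs to round sperm, with neighbours apart by more than the larger SD and without overlap. For Id4 the order in TPM was ESC XX, round sperm and AG-haESCs, again with neighbours apart. In FPKM, round sperm, at 9.31, lay above both ESC XX libraries, at 8.84 and 8.29. Id2 and Bmpr1a had round sperm apart at the bottom, while AG-haESCs and ESC XX did not differ beyond their spread. Smad1 and Smad5 in TPM likewise had round sperm lowest, apart from ESC XX, with ESC XX and AG-haESCs overlapping. This place of round sperm depends on the rescaling to TPM. In FPKM, all 3 AG-haESC lines lay below round sperm for Smad5, and only 1 of 3 lay above it for Smad1. Smad6 had round sperm apart at the top and the other groups overlapping. These orders cross tables that were scaled separately. Where ESC XX and round sperm were neighbours, the SD was that of the 2 ESC XX libraries alone, 0.06 for Id4 and 0.009 for Smad5. Almost any difference would exceed it, so these pairs show an order in TPM only. In FPKM, round sperm lay above both ESC XX libraries for Smad1 and Smad5, too.

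Patterns over the 6 libraries were compared by the root mean square difference of log2(TPM + 1) profiles, each centred on its own mean, among 11716 genes that reach 10 TPM. Most like Id1 were Zfp936 (0.21) and H2-D1, a class I histocompatibility gene (0.31). H2-D1 was at 25, 6.29 and 7.46 TPM in A129-2, AOS-14 and AOS-16, against 1.46 TPM in round sperm and 66.6 and 62.0 TPM in ESC XX. Most like Id3 were Anxa1, an annexin (0.21), and Cryab, a small heat shock protein (0.35). Anxa1 was at 37.4, 17.6 and 11.6 TPM in these lines, against 1.12 TPM in round sperm and 195 and 206 TPM in ESC XX. For Id2 the nearest genes were Pck2, a mitochondrial enzyme, and Snhg6, a small nucleolar RNA host gene (0.45 each). For Id4 they were Dst and Sbsn (0.33 and 0.34), for Smad6 Hip1r and Haghl (0.11 and 0.12), for Smad1 Asb7 and Dmtf1 (0.07 and 0.09), and for Bmpr1a Mgme1 and Rpl31 (0.06 each).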

How the data were processed

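PolyA RNA was sequenced in 6 libraries. Per the labels' protocols, they were made with a stranded KAPA mRNA kit. Per the submitters' processing notes, the authors aligned reads with TopHat2 2.0.13 and estimated expression with Cuffdiff 2.2.1 against mm9; strandedness in counting and other settings: not given in the sources used here. FPKM is the unit of what the authors deposited. Per the file headers, 4 libraries share a table with no unit named, read as FPKM from the tool and the values, and the ESC XX libraries have a table each. From these values TPM, approximate fragments, differences and calls were computed in Python 3.11.15 and with limma 3.58.1 in R 4.3.3, and the fits were tested on simulated data. Genes at an FPKM (or, against ESC XX, a TPM) of at least 1 in at least 1 library were kept, with a pseudocount of 1, which understates differences of low genes. Chromosomes and lengths were matched by symbol to a GRCm38 annotation (99.5% and 98.5% of symbols). All 9 members are named. From each pathway list, up to 3 called genes with the largest difference are named, and for members that reach 10 TPM the 2 genes most alike in pattern. Eng, Acvr1, Rgma and Atoh8 against ESC XX, Col1a1, and Smad7 levels were chosen after their values were seen. A gene of the pathway lists is not reported here and was left out of their counts. The members and lists were chosen with earlier results of these data known. Alternatives were other pseudocounts, filters, scalings and centring, no trend, and leaving out each library; replicate numbers of AG-haESCs only name lines and pair nothing.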

Additional observations from a re-analysis of the deposited data

How the results depend on the processing

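Against ESC XX the number of members called, 4, was the same in all 11 alternatives. Without removing the median the share of calls over all genes that were higher was 32.1% in place of 47.0%. Against round sperm, the number of members called was 2, and 1 to 3 when an AG-haESC library was left out. The differences of 2 uncalled members changed sign there. Smad1, at -0.03, became 0.98 at the same total, 0.95 also without short genes, 0.64 after quantile normalization and -0.23 to 0.15 when 1 line was left out, the highest being without AOS-14. Smad5, at -0.13, became 0.77, 0.75 and 0.26 under the same 3 scalings; the median of all genes moved in the same direction. Bmp4 was called with a pseudocount of 0.1 (1.97, limma adjusted p = 0.0261) and under the 3 scalings. Bmp4 and Smad5 had no value with a filter at an FPKM of 5, nor Bmp4 without AOS-14, as they fell below the filter. Of 267 single-gene values under alternatives, 241 kept their direction and side of the threshold or moved by less than the spread of the lines. No paired analysis was possible because the AG-haESC numbers only follow the order of the samples, round sperm has 1 library and the ESC XX comparison has no test. Round sperm has no replicate, approximate fragments cover counting error only, and the low levels of Id1, Id2, Id3 and Bmp4 in round sperm, about 4 to 7 fragments each, limit any fold against it.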

Other observations

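Id2 is also known as a gene of the trophectoderm, the outer layer of the blastocyst, and markers of trophoblast were therefore read beside it. The 6 markers summed to 85.0, 105 and 62.0 TPM in A129-2, AOS-14 and AOS-16, against 13.3 TPM in round sperm and 62.9 and 58.3 TPM in ESC XX. Most of each sum came from the keratin genes Krt8 and Krt18. Cdx2 and Elf5, transcription factors of the lineage, were at most 0.446 TPM in AG-haESCs. In ESC XX, Cdx2 was at 1.21 and 1.80 TPM and Elf5 at 0.0613 and 0.375 TPM. Eomes, another marker on the list, was at 4.86, 2.95 and 8.95 TPM in A129-2, AOS-14 and AOS-16, against 6.62 and 6.11 TPM in ESC XX. Of 5 markers compared with ESC XX 1 was called, Hand1, which was higher in AG-haESCs at 2.11, 4.42 and 3.97 TPM, against 0.625 and 0.667 TPM in ESC XX. Gata3, a trophoblast factor read above with the BMP targets and not among these markers, was also called higher. It was at 8.75, 11.7 and 8.45 TPM in AG-haESCs, against 2.83 and 2.19 TPM in ESC XX. These genes were chosen after their values were seen, and no relation to Id2 was tested.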
